A study of Mus musculus with 2 samples.

Results

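A set of 363 cells was taken from the inflamed synovium by the myeloid genes *Retnla*, *Dcstamp*, *Lyz1*, *Ear2* and *Clec4b1*, out of 10249 cells that passed the quality filter (3.54%). A cell entered the set, called the selected cells here, when at least 3 of the 5 genes had a unique molecular identifier (UMI, 1 tag per captured transcript), when *Ccl17* and *Cd209a* together had fewer than 5 UMIs, *Xcr1* and *Clec9a* together fewer than 2, and 1 further gene fewer than 10. The UMIs of these 10 genes chose the cells, so their levels are described here and support nothing. The cells came from C57BL/6 mice, 7 to 10 weeks old at the start, given PBS or 1 mg of β-glucan into the peritoneum 7 days before arthritis was induced. CD45+CD11b+ cells came from hind paws at day 17 of K/BxN serum transfer arthritis, an arthritis set off by autoantibody-containing serum, and their transcripts were sequenced from the 3′ end in droplets. The deposited sample labels name an antibody cocktail with lipopolysaccharide as the inducing agent, whereas the series' design and the methods name K/BxN serum, which is followed here. All mice of both groups were arthritic, so no healthy joint is among the samples. The 4 mice of each group were pooled into 1 library, and there is therefore no replicate and no test between β-glucan and PBS. The libraries held 81611849 UMIs over 7196 barcodes (β-glucan) and 73874602 over 5760 (PBS), and the filter asked for 500 or more genes and for mitochondrial UMIs of 10% or less, which left cells at a median of 12457.5 and 14475 UMIs. Throughout, where 2 values are given, the first is β-glucan and the second PBS. Intervals are exact, at 95%, and cover counting error only.

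*Retnla* encodes RELMα, a secreted protein that macrophages make in response to interleukin-4 and interleukin-13 through STAT6. *Dcstamp* encodes a membrane protein needed for the fusion of mononuclear precursors into osteoclasts and giant cells, which is the step by which bone-resorbing cells arise from myeloid cells in arthritis. *Lyz1* encodes a lysozyme that cleaves bacterial cell walls, *Ear2* a ribonuclease of the eosinophil-associated family, and *Clec4b1* a C-type lectin receptor of myeloid cells.

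The 3 promoters below are shown because they belong to genes that put cells in the set. They are RefSeq sequences of GRCm38.p6, from 250 bases before to 50 bases after the start of the gene, written 5′ to 3′ on the gene's strand. Capitals mark matches to motifs searched on both strands, namely STAT6 (TTC and GAA with 4 bases between), AP-1 (TGANTCA), PU.1 (GAGGAAG), C/EBP (TTGCNNAA) and a composite of PU.1 and IRF (GGAA and GAAA with 2 bases between).
Retnla, chr16:48842359-48842658, plus strand: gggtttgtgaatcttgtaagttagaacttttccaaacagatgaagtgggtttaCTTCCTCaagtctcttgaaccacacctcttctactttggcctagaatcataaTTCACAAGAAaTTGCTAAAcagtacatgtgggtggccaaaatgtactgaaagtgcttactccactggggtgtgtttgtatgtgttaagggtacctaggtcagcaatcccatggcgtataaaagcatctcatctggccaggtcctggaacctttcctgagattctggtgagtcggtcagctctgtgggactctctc
Ear2, chr14:44102404-44102703, plus strand: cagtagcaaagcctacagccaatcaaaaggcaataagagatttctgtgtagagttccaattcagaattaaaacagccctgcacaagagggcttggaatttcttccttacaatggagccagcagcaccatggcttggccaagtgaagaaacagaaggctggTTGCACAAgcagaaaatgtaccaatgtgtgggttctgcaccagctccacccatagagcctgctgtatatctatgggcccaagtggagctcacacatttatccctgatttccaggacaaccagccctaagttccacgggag
Lyz1, chr10:117292819-117293118, minus strand: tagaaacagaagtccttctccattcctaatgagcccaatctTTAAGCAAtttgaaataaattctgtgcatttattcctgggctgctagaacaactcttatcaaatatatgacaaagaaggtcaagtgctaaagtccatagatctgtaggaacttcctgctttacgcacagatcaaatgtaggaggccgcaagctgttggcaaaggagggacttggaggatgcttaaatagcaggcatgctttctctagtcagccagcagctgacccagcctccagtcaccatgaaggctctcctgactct
The *Retnla* promoter held a STAT6 match 145 bases before the start, a C/EBP match next to it at 134 bases and a PU.1 match at 197 bases on the reverse strand. *Ear2* and *Lyz1* each held a C/EBP match, at 90 and 209 bases before the start. The *Clec4b1* promoter (chr6:123049712-123050011, plus strand) held none of these letters. Of 32851 mouse promoters of the same length, 10.8% held the C/EBP motif, 6.95% the STAT6 motif, 13.6% the PU.1 motif, 7.81% the AP-1 motif and 2.72% the composite. These matches describe letters in the window and not binding.

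The selected cells were a small share of either library. After β-glucan, 163 of 5696 cells met the rule (2.86%, 2.44 to 3.33), and after PBS 200 of 4553 (4.39%, 3.82 to 5.03). The rule reads UMIs, and deeper cells meet it more easily, so the share was also taken with each cell thinned to 8000 UMIs. It was then 108 of 4275 cells (2.53%, 2.08 to 3.04) and 163 of 3512 (4.64%, 3.97 to 5.39), beside 3.63% and 5.41% of the same cells before thinning, and 1421 and 1041 shallower cells were left out. The PBS library had the higher share either way.

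Free RNA in the droplets can bring a cell under part of the rule. Of B cell-like cells, set apart by at least 10 UMIs of *Cd79a*, *Cd79b* and *Ms4a1*, 15 of 297 (5.05%) and 4 of 223 (1.79%) had a UMI of at least 3 of the 5 genes, although their median depth was 5921 and 6253 UMIs against 20463 and 22288 in the selected cells. Counted in the same way, with no limit on other genes, the shares of all cells were 4.28% and 7.40%. With each cell thinned to 8000 UMIs, 8 of 92 B cell-like cells (8.70%) and 1 of 58 (1.72%) had at least 3 of the 5 genes, again with no limit on other genes. At full depth and with the limits, 7 (2.36%, 0.953 to 4.80) and 2 (0.897%, 0.109 to 3.20) of the B cell-like cells met the whole rule and so are among the selected cells. The share of all cells that met the rule after β-glucan, 2.86%, lay within the interval of this background, and the share after PBS, 4.39%, lay above it. All cells were deeper, at medians of 12457.5 and 14475 UMIs against 5921 and 6253 in the B cell-like cells. Deeper cells meet the rule more easily, so this comparison is not at like depth and does not set either share apart from free RNA. The B cell-like cells had the higher share after β-glucan, the opposite order to that of all cells, on these small counts. The part that free RNA and mixed droplets have in the shares was not tested.

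*Retnla* (GRCm39, chr16:48662895-48664824, plus strand) had a UMI in 125 of 163 selected cells (76.7%) and in 159 of 200 (79.5%), at 3650 and 4394 CPM, where CPM is the summed UMIs of a gene per 1000000 UMIs of the cells. Its UMIs were held by few cells, since the 10% of cells with the most UMIs carried 80.4% and 67.3% of them, and the highest cells had 2849 and 1695. *Lyz1* (chr10:117123698-117128775, minus strand) was found in 92.0% and 92.5% of the selected cells, at 2548 and 2777 CPM, and was spread more evenly, with 41.6% and 47.4% of UMIs in the top 10% of cells. *Clec4b1* (chr6:123026921-123048514, plus strand) was found in 96.3% and 95.5%, at 196 and 236 CPM. *Lyz1* and *Clec4b1* thus carried most cells over the rule. The neighbouring *Lyz2*, the lysozyme of macrophages and neutrophils and a close copy of *Lyz1*, was at 12115 and 12881 CPM in the selected cells and at 11654 and 12942 CPM in other macrophages, and how reads shared by the copies were counted is not given in the sources used here.

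The genes that name the set were the rarer ones. *Dcstamp* (chr15:39609214-39624334, plus strand) had a UMI in 63 cells (38.7%, 31.1 to 46.6) and in 80 (40%, 33.2 to 47.1), at 88.1 and 102 CPM. *Ear2* (chr14:44311771-44340996, plus strand) had a UMI in 75 (46.0%) and 96 cells (48%), at 110 and 145 CPM. Of the 363 cells, 120 (33.1%) had neither, and these were the cells with *Retnla*, *Lyz1* and *Clec4b1* alone. The label of *Retnla*, *Dcstamp* and *Ear2* myeloid cells therefore held for part of the set. *Ear1* had 1 UMI in each library, and *Ear6* and *Ear10* had none in the selected cells. A gene annotated on the same strand overlaps *Ear2*, and reads from it cannot be told apart from those of *Ear2*.

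Outside the set these genes differed in how far down they went. In other macrophages, *Dcstamp* was at 0.174 and 1.34 CPM and *Ear2* at 0.766 and 1.51 CPM. *Clec4b1* was at 12.99 and 15.7 CPM there, *Retnla* at 115 and 190 CPM, and *Lyz1* at 538 and 553 CPM, with a *Lyz1* UMI in 52.3% and 49.7% of cells. These other macrophages were 3985 and 2795 cells that did not meet the rule, were under the same limits for *Ccl17*, *Cd209a*, *Xcr1*, *Clec9a* and the further gene, were under 10 UMIs of the B cell genes above, which the rule does not ask of the selected cells, and had at least 20 UMIs of *C1qa*, *C1qb*, *C1qc*, *Csf1r* and *Adgre1*. Cells with 5 or more UMIs of *Ccl17* and *Cd209a*, which the rule keeps out, numbered 199 and 291. They carried *Dcstamp* at 50.8 and 103 CPM against 88.1 and 102 in the selected cells, *Ear2* at 82.2 and 94.2 CPM against 110 and 145, and *Clec4b1* at 170 and 169 CPM against 196 and 236. *Lyz1*, at 510 and 195 CPM, and *Retnla*, at 111 and 753 CPM, were further below the selected cells.

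**Figure D1:**
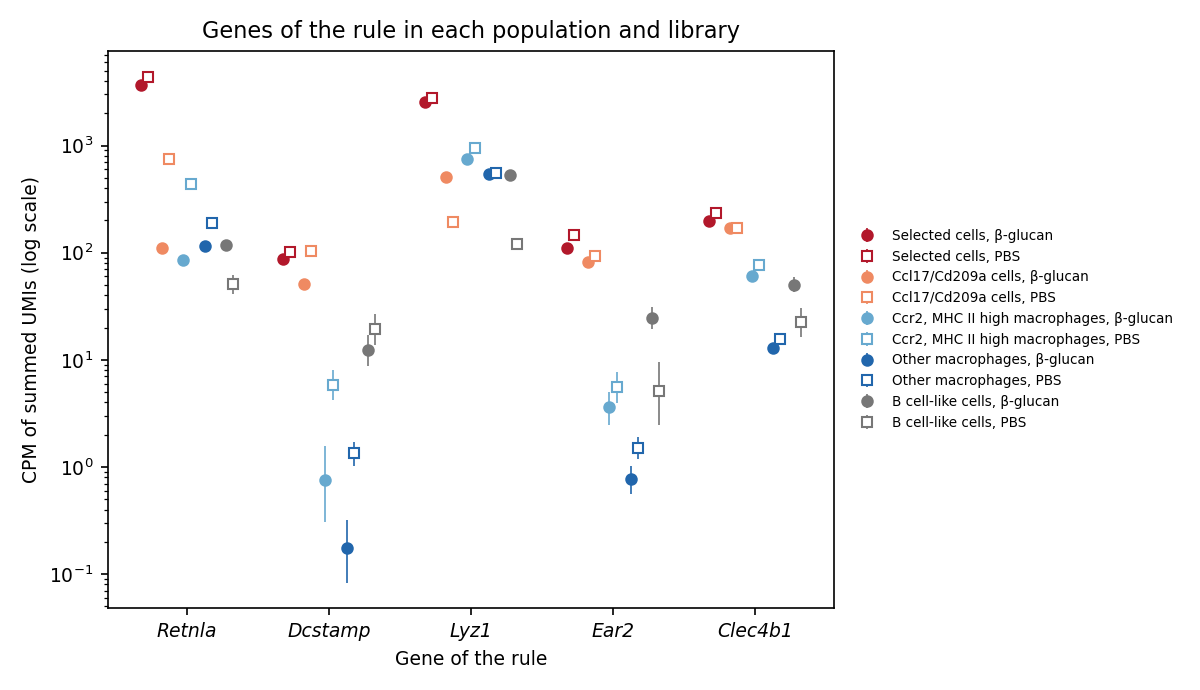
Level of each gene of the rule (CPM of summed UMIs, log axis) in 5 populations of cells, filled circles for the β-glucan library and open squares for the PBS library, with exact Poisson intervals for counting error. In the Ccl17/Cd209a cells, *Dcstamp*, *Ear2* and *Clec4b1* were nearer the level of the selected cells than *Retnla* and *Lyz1* were.

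Of all cells with at least 3 of the 5 genes, 218 were kept out by the limits, among them 190 by *Ccl17* and *Cd209a* and 13 by *Xcr1* and *Clec9a*, some by more than 1 limit. *Xcr1* and *Clec9a*, markers of cross-presenting dendritic cells, had 0 UMIs in the selected cells, which allows up to 0.959 and 0.760 CPM. Just inside the threshold, 218 selected cells had exactly 3 of the 5 genes, with a median of 28.5 UMIs of the 5 genes together. Just outside it, 955 cells had 2 genes and a median of 8 UMIs. The 98 cells with 4 genes had a median of 132 and the 47 cells with all 5 a median of 172. Total depth followed the same order, with medians of 15779 UMIs at 2 genes, 19497 at 3, 24979.5 at 4 and 27227 at 5.

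Which genes a cell carried went with where it lay in the map of all cells. Clusters were rebuilt without the 10 genes of the rule and its limits and without the 16 genes that the scRNA-seq results of the study compare, which gave 19 clusters. Cluster 3, with *Ccl17*, *Mmp12*, *Retnla* and *Cd209a* among its leading genes, held 216 of the selected cells (59.5%), and also 381 of the 490 *Ccl17* or *Cd209a* cells (77.8%). Cluster 6, led by *H2-Aa*, *H2-Eb1*, *Cd74* and *Ccr2*, held 56 (15.4%), and 91 cells (25.1%) were spread over other clusters. Among those were 21 in cluster 0, 15 in a cluster led by *H1f5*, *Top2a* and *Mki67*, 14 in cluster 1 and 11 in a cluster led by the neutrophil genes *Retnlg*, *S100a9* and *Il1b*. The selected cells were thus not 1 cluster, and the share in cluster 3 was 52.8% after β-glucan and 65% after PBS.

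**Figure D2:**
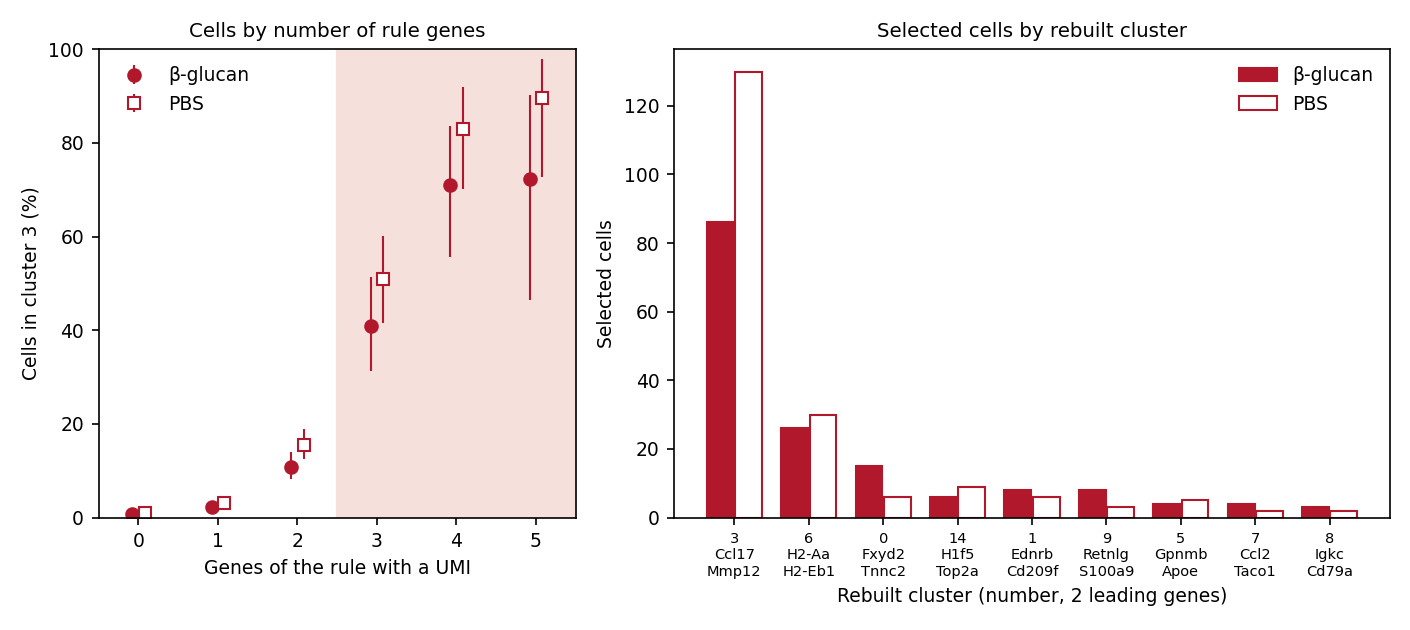
Left, share of cells in cluster 3 (%) by the number of rule genes with a UMI, among cells not kept out by the limits, with exact Clopper-Pearson intervals and the selected cells shaded. Right, number of selected cells of each library in the clusters that held at least 5 of them, so that cluster 3 stands at 86 and 130 cells and cluster 6 at 26 and 30.

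Of 143 selected cells with a *Dcstamp* UMI, 119 lay in cluster 3 (83.2%, 76.1 to 88.9), and of 220 without, 97 did (44.1%, 37.4 to 50.9), at median depths of 26247 and 19272 UMIs. For *Ear2* the shares were 69.0% of 171 cells with and 51.0% of 192 without, at nearly the same depth (medians 21147 and 21051). For *Retnla* the order was the other way, with 56.0% of 284 cells with a UMI and 72.2% of 79 without. These contrasts were shaped by the rule, since a selected cell without *Retnla* has to carry *Dcstamp* or *Ear2*. Of the 120 cells with neither *Dcstamp* nor *Ear2*, 37 lay in cluster 3 (30.8%, 22.7 to 39.9). The 47 cells with all 5 genes and the 37 with all but *Ear2* lay there in 83.0% and 91.9%. *Dcstamp* was at 151 and 137 CPM in the selected cells of cluster 3, at 3.4 and 14.9 CPM in those of cluster 6, and at 36.3 and 49.9 CPM in the rest. Across the 363 cells, UMIs of *Retnla* went with those of *Lyz1* (Spearman's rho 0.31) and of *Dcstamp* with *Clec4b1* (0.30), whereas the other 8 pairs lay between -0.09 and 0.08. These are descriptions over cells of 2 libraries that share their depth, and carry no test.

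Doublets were not removed. Scrublet's own threshold marked 0 and 2 cells, too few for it to have worked, so the 260 and 166 cells with its highest scores were counted as candidates. These were out of 5696 and 4553 cells that passed the filter. Candidates made up 7.44% of all selected cells, beside 4.03% of other macrophages and 7.35% of the *Ccl17* or *Cd209a* cells. By cluster, they made up 2.31% of the selected cells in cluster 3, 8.93% in cluster 6 and 18.7% in the other clusters. The libraries shared 7 barcodes, and none was of a selected cell.

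Against macrophages as a whole, the selected cells had higher levels of antigen presentation genes and lower levels of resident synovial macrophage genes. Genes were compared within each library, and a gene was counted when it was past 2-fold in the same direction in both. Of 4018 genes with at least 50 CPM, 2.59% were higher in the selected cells and 135 were lower (3.36%), while the median log2 ratio over all genes was -0.06 and -0.07. A gene could reach this level in 1 population only. *Hepacam2* did so in the selected cells, at 60.6 and 64.5 CPM against 2.58 and 3.16, and *Vsig4* in other macrophages, at 346 and 368 CPM against 24.7 and 28.0. The direction of such a gene was fixed by the filter, here and in the lists and comparators below, so these counts are descriptions. The 10 genes of the rule and those that set the comparator apart were left out of the counts, and since the comparator was chosen for *C1qa*, *C1qb*, *C1qc*, *Csf1r* and *Adgre1*, lower values of these in the selected cells were partly fixed by that choice. *C1qa* was at 1523 and 1061 CPM in the selected cells against 2827 and 2980, and *Csf1r* at 604 and 541 against 1094 and 1082.

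**Figure D3:**
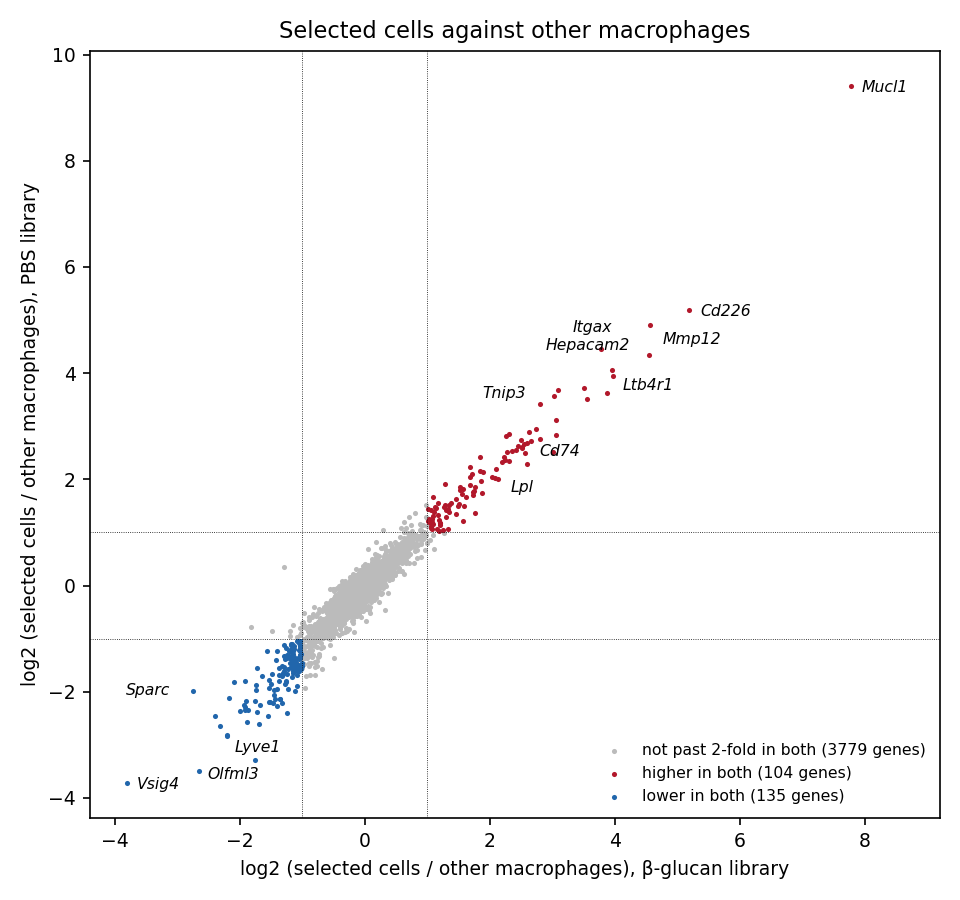
Each point is a gene with at least 50 CPM, with its log2 ratio of the selected cells over other macrophages after β-glucan (x axis) and after PBS (y axis). Dotted lines mark 2-fold, and genes past it in both libraries are red where higher and blue where lower, 135 of the latter.

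The gene with the highest ratio among those left, *Mucl1*, a mucin-like gene, came from few cells. It was at 72.8 and 225 CPM in the selected cells and at 0.331 and 0.329 CPM in other macrophages, but it had a UMI in 5 and 9 selected cells, and 1 cell held 79.6% and 72.6% of its UMIs. *Mmp12*, macrophage elastase, was at 62.9 and 105 CPM against 2.65 and 3.51, from 16 and 31 cells, with 51.7% and 43.1% of UMIs in 1 cell. For both genes the sums describe single cells more than the set.

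Other genes of the top group were spread over the cells. *Cd226* (GRCm39, chr18:89195087-89290353, plus strand), the adhesion receptor DNAM-1, was at 173 and 142 CPM in the selected cells and at 4.72 and 3.86 CPM in other macrophages, a log2 ratio of 5.20 in both libraries (4.99 to 5.41 and 4.96 to 5.44), with a UMI in 93 and 120 cells. *Itgax* (chr7:127728668-127749829, plus strand), which encodes the integrin CD11c, was at 73.3 and 116 CPM against 5.31 and 5.29, a log2 ratio of 3.79 and 4.46. *Ltb4r1* (chr14:56003292-56005951, plus strand), the leukotriene B4 receptor BLT1, was at 105 and 153 CPM against 6.70 and 9.13, in 101 and 131 cells. Each of these genes was found in more of the selected cells than *Ear2*.

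The adhesion gene *Hepacam2* was at 60.6 and 64.5 CPM against 2.58 and 3.16, and *Cd24a*, a surface sialoprotein, at 119 and 139 CPM against 10.5 and 10.6. *Tnip3*, which binds the NF-κB inhibitor A20, was at 161 and 263 CPM against 22.9 and 24.7. *Lmo1*, a LIM domain cofactor of transcription, *Kcnq1*, a potassium channel, *Grap2*, an adaptor of receptor signalling, *Tmtc2*, *Plbd1*, *Ndnf*, which encodes a secreted neurotrophic factor, and the predicted gene *Gm15987* made up the rest of the 15 highest, at 50.4 to 161 CPM in the selected cells after β-glucan and 68.8 to 158 CPM after PBS. Counts of *Ltb4r1*, *Kcnq1*, *Grap2*, *Tmtc2* and *Gm15987*, and below of *Slc24a3*, *Colec12*, *Pmepa1*, *Il1r2*, *Aoah*, *Pdgfc*, *H1f5*, *Stmn1*, *Per1*, *Elmo1*, *Csf1r*, *Mapk14*, *Rock2* and *Nr4a1*, are uncertain, since other annotated genes overlap them on the same strand. Of the 15, *Cd226*, *Hepacam2*, *Ltb4r1*, *Lmo1*, *Itgax*, *Kcnq1*, *Grap2*, *Cd24a*, *Tmtc2*, *Plbd1*, *Gm15987*, *Ndnf* and *Tnip3* were at more than 50 CPM in the *Ccl17* or *Cd209a* cells of both libraries as well, *Cd226* for instance at 134 and 103 CPM and *Hepacam2* at 142 and 148 CPM. *Hepacam2*, *Lmo1*, *Grap2* and *Plbd1* were past 2-fold higher there than in the selected cells.

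Within the selected cells these genes followed cluster 3. *Cd226* was at 284 and 177 CPM in the selected cells of cluster 3, at 54.5 and 77.3 CPM in those of cluster 6 and at 67.4 and 73.8 CPM in the rest. *Itgax* was at 106 and 152 CPM in cluster 3 and at 17.0 and 19.3 CPM in cluster 6. In each cluster the levels were above the 4.72 and 3.86 CPM of *Cd226* and the 5.31 and 5.29 CPM of *Itgax* in other macrophages.

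MHC class II genes, which present peptides to CD4 T cells, were higher in the selected cells in 7 of 9 measured genes, beside 2.59% of all genes, and lower in none, and their median log2 ratio was 2.45 and 2.55. The invariant chain gene *Cd74* was at 9731 and 12948 CPM against 1613 and 2021 in other macrophages, and *H2-Aa* at 3392 and 4372 CPM against 635 and 744. *Ciita*, the transactivator of these genes, was at 112 and 89.6 CPM against 18.5 and 18.3. *Ctss* and *Ifi30*, enzymes of antigen processing that macrophages use widely, were the 2 that were not past the fold.

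The genes of resident synovial macrophages were lower in 5 of 8 measured, beside 3.36% of all genes, and higher in none, with median log2 ratios of -1.81 and -2.12. *Vsig4* (chrX:95290807-95337044, minus strand), a complement receptor of lining macrophages, was at 24.7 and 28.0 CPM in the selected cells and at 346 and 368 CPM in other macrophages, a log2 ratio of -3.81 (-4.11 to -3.52) and -3.72 (-3.97 to -3.47). *Lyve1* (chr7:110448585-110462460, minus strand), a hyaluronan receptor, was at 178 and 109 CPM against 822 and 766, and the water channel *Aqp1* at 184 and 151 against 700 and 717. *Folr2* and *Sparc* were the other genes of the list past the fold. *Trem2*, which is also in this list, was the most abundant of its genes in the selected cells, at 375 and 343 CPM.

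Also among the 10 lowest genes were *Olfml3*, *Slc24a3*, *Colec12*, *Pmepa1* and *Cpne8*. *Pmepa1*, a target of TGF-β, was at 135 and 92.5 against 621 and 657. *Sparc* was held by few cells, with 35.9% and 41.9% of its UMIs in 1 selected cell of each library. *Vsig4* was left in 15 and 20 of the selected cells.

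**Figure D4:**
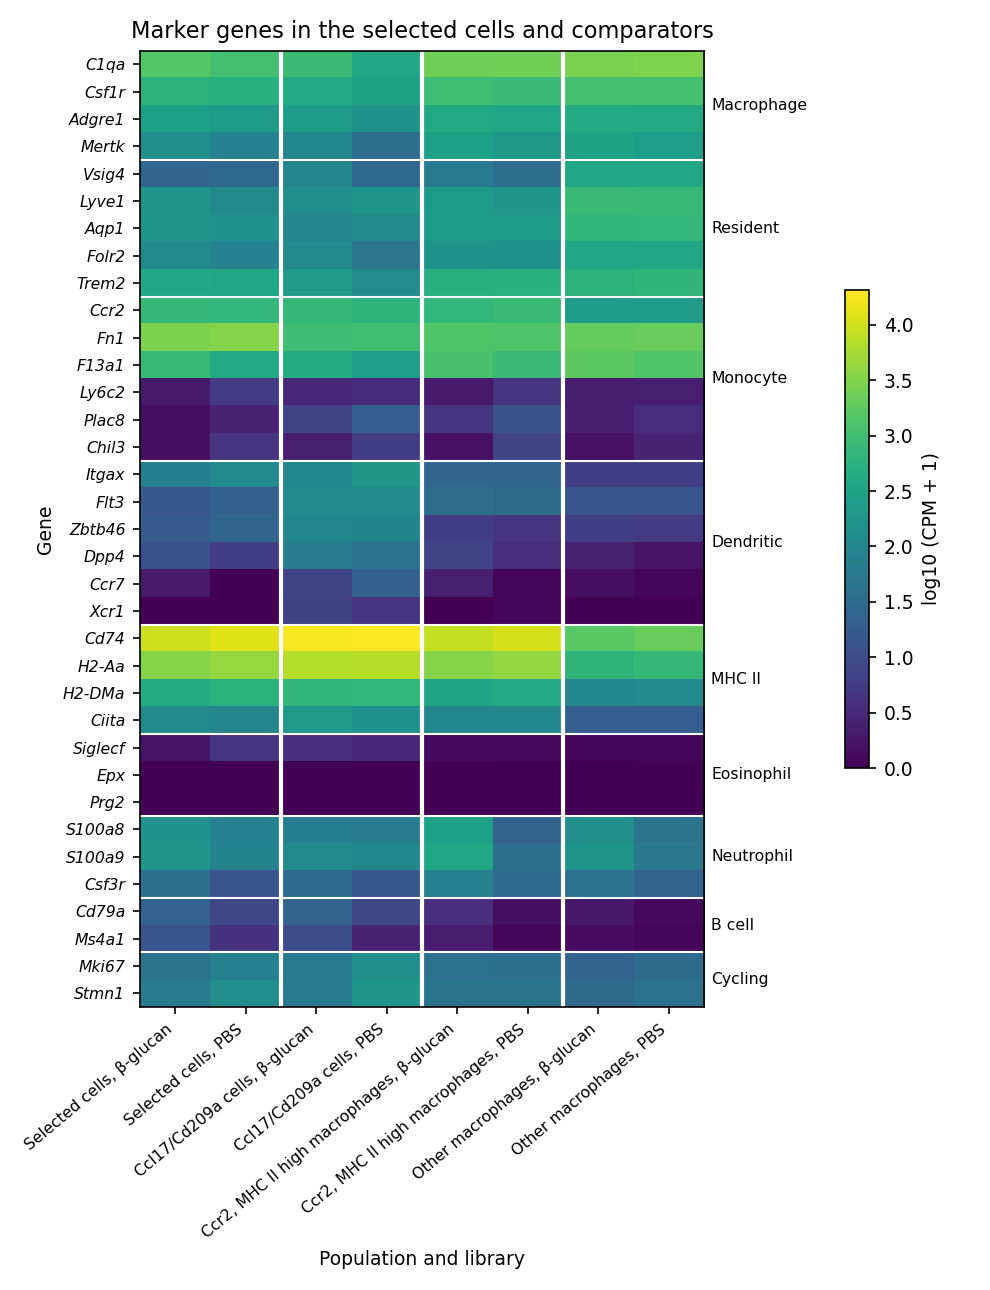
Marker genes (rows) by population and library (columns), coloured by log10 of CPM + 1. The selected cells held *Cd74* at 9731 and 12948 CPM with macrophage genes such as *C1qa*, and had *Epx* and *Prg2* of eosinophils at 0.

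Monocyte markers did not move as a group. *Ccr2*, the chemokine receptor with which monocytes leave the marrow, was at 754 and 733 CPM against 245 and 231, while *Vcan* and *F13a1* were lower, and *Ly6c2* (1.04 and 4.53 CPM) and *Plac8* (0.52 and 1.65 CPM) of blood monocytes were near 0. Dendritic cell markers had 1 measured gene, *Itgax*, and the defining *Flt3* and *Zbtb46* were under the minimum level, *Flt3* at 15.1 and 20.8 CPM against 12.1 and 12.0 and *Zbtb46* at 16.9 and 24.5 CPM against 5.38 and 4.94, with *Ccr7* at 1.04 and 0 CPM. All 9 dendritic cell markers summed to 145 and 181 CPM against 41.8 and 36.6 in other macrophages, and *Cd209a*, *Xcr1* and *Clec9a* among them were held down by the rule. Of macrophage core markers outside the choice of the comparator, 2 of 4 measured were lower, among them *Mertk*, a receptor for the uptake of dying cells, at 138 and 79.5 CPM against 303 and 249, beside 3.36% of all genes, and *Cd68* and *Cd14* were not past the fold.

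Eosinophil markers summed to 1.04 and 4.53 CPM with *Epx* and *Prg2* at 0, although *Ear2* is named for eosinophils. Neutrophil markers summed to 386 and 222 CPM in the selected cells and to 365 and 135 CPM in other macrophages, with *S100a9* the most abundant and *Ly6g* at 0.52 and 0 CPM. B cell markers summed to 56.7 and 19.97 CPM against 6.27 and 5.51, a contrast partly fixed by the limit on B cell genes in other macrophages, T and natural killer cell markers to 3.38 and 9.47 CPM, stromal markers to 31.5 and 19.4 CPM against 169 and 52.1, and mast cell and basophil markers to 1.04 and 15.4 CPM. The part of neutrophil and B cell RNA in the other results was not tested.

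Of 15 measured genes of macrophage fusion and osteoclasts, the list to which *Dcstamp* belongs, 1 was higher and none lower, beside 2.59% and 3.36% of all genes. Their median log2 ratios were -0.12 and -0.45, beside -0.06 and -0.07. The higher gene was *Adam8*, a membrane protease known from osteoclast formation, at 181 and 206 CPM against 36.3 and 40.6. *Ocstamp*, the partner of *Dcstamp* in fusion, was at 2.34 and 1.24 CPM from 5 and 3 cells, *Acp5*, which encodes the tartrate-resistant phosphatase of osteoclasts, at 9.36 and 7.00 CPM against 12.4 and 36.1, *Oscar* was at 0 and the calcitonin receptor gene *Calcr* had 1 UMI in all. *Tnfrsf11a*, which encodes RANK, the receptor through which osteoclasts are induced, was at 220 and 219 CPM against 318 and 320, and *Ctsk* at 36.4 and 96.8 CPM against 129 and 167, neither past the fold in both libraries.

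Alternative activation genes, to which *Retnla* belongs, were higher in 2 of 13 measured and lower in 1, beside 2.59% and 3.36% of all genes, with medians of 0.00 and -0.23. *Mgl2*, a lectin of alternatively activated macrophages, was at 266 and 312 CPM against 62.6 and 76.1, and the transcription factor *Irf4* at 96.5 and 114 against 39.8 and 30.5. *Tgm2* was lower, at 30.2 and 24.7 CPM against 66.4 and 65.3. *Chil3*, a chitinase-like gene often read together with *Retnla*, was at 0.52 and 3.71 CPM, and *Mrc1* at 951 and 657 CPM against 1348 and 1295, not past the fold.

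Some single genes of other lists were past the fold. *Lpl*, lipoprotein lipase, was at 836 and 945 CPM against 191 and 236, and *Csf2ra*, the GM-CSF receptor chain, at 257 and 322 against 122 and 134, 2 of 8 measured in the PPARγ and GM-CSF list. *Ccl6* was the 1 chemokine of 6 that was higher, at 1180 and 1351 CPM against 357 and 316. *Batf3*, a transcription factor of dendritic cells, was at 78.5 and 97.0 CPM against 11.3 and 14.3, and with *Irf4* it was 1 of 2 higher among 20 transcription factors, where 2 were lower, *Maf* among them. In each of these lists the count stood beside 2.59% and 3.36% of all genes.

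In the matrix list *Mmp12* and *Mmp19* were higher and *Spp1*, *Gas6* and *Timp2* lower among 11, beside 2.59% and 3.36% of all genes here and in the next lists, with *Spp1*, osteopontin, at 96.7 and 93.7 CPM against 322 and 365. Among 8 C-type lectins *Clec4a2* was higher, at 374 and 375 CPM against 136 and 146, and *Clec5a* lower, at 40.04 and 22.7 against 100.4 and 105. The proliferation marker *Stmn1* was higher, at 64.2 and 132 CPM against 30.2 and 41.3, and no gene of the immediate-early list (12 measured) or of the β-glucan receptor signalling list (8 measured) was past the fold. The ribonuclease *Rnase4*, the Fc receptor *Fcgrt*, the interferon-stimulated *Ifi204* and the complement receptor *C5ar1* were lower.

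Against the macrophages most like them, the selected cells differed less. These were the 547 and 408 other macrophages with a *Ccr2* UMI and at least 20 UMIs of *H2-Aa*, *H2-Ab1* and *H2-Eb1*. Of 3865 genes, 42 were higher in the selected cells (1.09%) and 26 lower (0.673%), with *Ccr2* and the 3 class II genes left out as part of the choice. *Cd226* was at 18.8 CPM in these macrophages in both libraries, *Ltb4r1* at 19.3 and 33.2 CPM and *Itgax* at 24.3 and 23.5 CPM, between the other macrophages and the selected cells. *Lpl*, *Ccl6*, *Adam8* and *Batf3* were past 2-fold here too, *Lpl* against 376 and 438 CPM. *Fn1*, which encodes fibronectin, was past 2-fold here, at 2946 and 3217 CPM against 1389 and 1344, but not against other macrophages, at 1950 and 2056 CPM. *Apoe* was lower in the selected cells, at 3028 and 2035 CPM against 7102 and 6442, as were *Mertk*, *Cx3cr1*, *Fcgr1* and *Clec4n*. No other class II gene of 6 measured was past the fold, which was partly fixed, since these macrophages were chosen for high class II genes. Of 7 resident macrophage genes 1 was lower, *Cx3cr1*.

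Against the *Ccl17* or *Cd209a* cells, 27 of 3766 genes were higher (0.717%) and 48 lower (1.27%). Dendritic cell markers were lower in 2 of 3 measured, *Flt3* at 15.1 and 20.8 CPM against 110 and 114 and *Zbtb46* at 16.9 and 24.5 against 90.2 and 87.3. *Flt3* and *Zbtb46* reached the minimum level in the *Ccl17* or *Cd209a* cells alone, so they could be counted only as lower, and this count supports nothing. The lectin *Mgl2* was lower too, at 266 and 312 CPM against 988 and 1153. *Fn1* was higher in the selected cells than the 942 and 988 CPM of these cells, *Lpl* at 836 and 945 against 208 and 277, the chemokine *Ccl24* at 133 and 211 against 26.1 and 35.1, and *Ccl6* at 1180 and 1351 against 422 and 322. *Ccl22*, at 0.52 and 2.06 CPM against 57.8 and 120, was lower, in cells that the rule had held under the limit for *Ccl17*. No resident macrophage gene of 7 measured was past the fold. *Lpl* and *Ccl6* were thus the genes of the lists that were past 2-fold above all 3 comparators.

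Between the libraries, the selected cells had 67 of 3736 genes past 1.5-fold higher after β-glucan (1.79%) and 25 past it lower (0.669%), where a gene had to average 50 CPM over the libraries and the median log2 ratio over all was 0.03. In other macrophages 61 of the 67 and 21 of the 25 had the same direction, and 8 and 3 were past 1.5-fold. The same shares over all 3736 genes are not given here, so these counts are not read as a result about the called genes. The UMIs of the selected cells of cluster 3 are part of the sums that gave the 67 and 25 genes, so agreement there was partly fixed and supports nothing. In these cells 63 and 25 had the same direction, and 26 and 18 were past the fold. With the top cell of each gene left out of each library, an alternative chosen after seeing the data, 63 of the 67 and 25 of the 25 were still past it, and 61 and 19 when the level filter was also applied anew. Long genes stood higher after β-glucan, at a median of 0.14 on the log2 scale for 829 genes that span 100 kb or more and -0.07 for 628 under 10 kb, and other macrophages gave 0.14 and -0.09. Of the long genes 4.34% were past 1.5-fold higher and 0.483% lower, and of those under 10 kb 0.955% and 1.59%. The median span was 121 kb for the 67 higher genes and 12.2 kb for the 25 lower. Whether reads in introns were counted is not given in the sources used here, and the part that gene span has in the single genes was not tested.

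Over all selected cells, no gene of the rule was past 1.5-fold between the libraries. The log2 ratio of β-glucan over PBS was -0.27 for *Retnla* (-0.30 to -0.24), -0.12 for *Lyz1*, -0.27 for *Clec4b1*, -0.40 for *Ear2* and -0.21 for *Dcstamp* (-0.42 to -0.01). The *Retnla* value was a mixture, at 0.67 in cells with 3 of the 5 genes and -0.90 in cells with 4 or 5, and so was that of *Dcstamp*, at -1.10 (30.01 and 64.2 CPM) and 0.19. *Ear2* stood at -0.70 and -0.20 in the same cells, and *Dcstamp* at 0.14 in cluster 3. The cells were chosen by these genes, so the values describe the choice as much as the cells.

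The genes named by size had at least 50 CPM in either library and the same direction in cells with 3 and with 4 or 5 genes of the rule. *Aoah*, *Hpgds*, *Fam214a*, *Calcrl*, *Flt1*, *H1f5*, *Olr1* and *Per1* among them averaged under 50 CPM and are outside the counts above. They reached 50 CPM only in the library where they were higher, so their place among the named genes was partly fixed by that filter and supports nothing. Of all genes named by size, *Il1r2* and *Il1b* had the highest ratios, and they were detected in few of the selected cells. *Il1r2*, the decoy receptor of interleukin-1, was at 132 and 40.2 CPM (log2 1.72, 1.48 to 1.96), from 22 and 26 cells, and *Il1b* at 155 and 52.7 CPM (1.56), from 23 and 26 cells. The top cells of both genes lay in cluster 9, which *Retnlg*, *S100a9* and *Il1b* lead and which held 8 and 3 selected cells. In the selected cells of cluster 3 the direction turned, to -0.38 for *Il1r2* and -0.81 for *Il1b*. Levels there were low, at 9.43 and 12.3 CPM for *Il1r2* and 19.4 and 33.9 CPM for *Il1b*, and no interval was taken. In other macrophages both genes were higher with β-glucan, at 1.29 and 1.44. *S100a9* was at 174 and 84.2 CPM (1.05), with 84.4% of its PBS UMIs in 1 cell and a ratio of 3.17 without the top cells, and was higher with β-glucan in other macrophages as well (1.68).

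*Aoah* (chr13:20978283-21220787, plus strand), which encodes an enzyme that inactivates bacterial lipopolysaccharide, was at 55.1 and 19.2 CPM (log2 1.53, 1.17 to 1.89), from 49 and 39 cells, and stood at 1.48 in cluster 3 and 0.06 in other macrophages. *Hpgds* (chr6:65094001-65121983, minus strand), prostaglandin D synthase, was at 53.8 and 21.2 CPM (1.34, 0.996 to 1.70), from 61 and 40 cells, at 1.251 in cluster 3 and 0.19 in other macrophages. *Cx3cr1* (chr9:119877749-119898945, minus strand), the fractalkine receptor, was at 121 and 53.8 CPM (1.17, 0.95 to 1.39), from 84 and 68 cells, with 0.58 in cluster 3 and 0.19 in other macrophages. These 3 genes were spread over the cells, and in none did 1 cell hold more than 12.6% of the UMIs. The difference between the selected cells and other macrophages in these ratios was not tested. Next in size were *Pdgfc*, a growth factor (0.99), *Fam214a* (0.97), *Calcrl*, part of the receptor for calcitonin gene-related peptide (0.96), and *Snx24* (0.94), and of these *Pdgfc*, *Fam214a* and *Calcrl* were also over 0.6 in other macrophages.

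**Figure D5:**
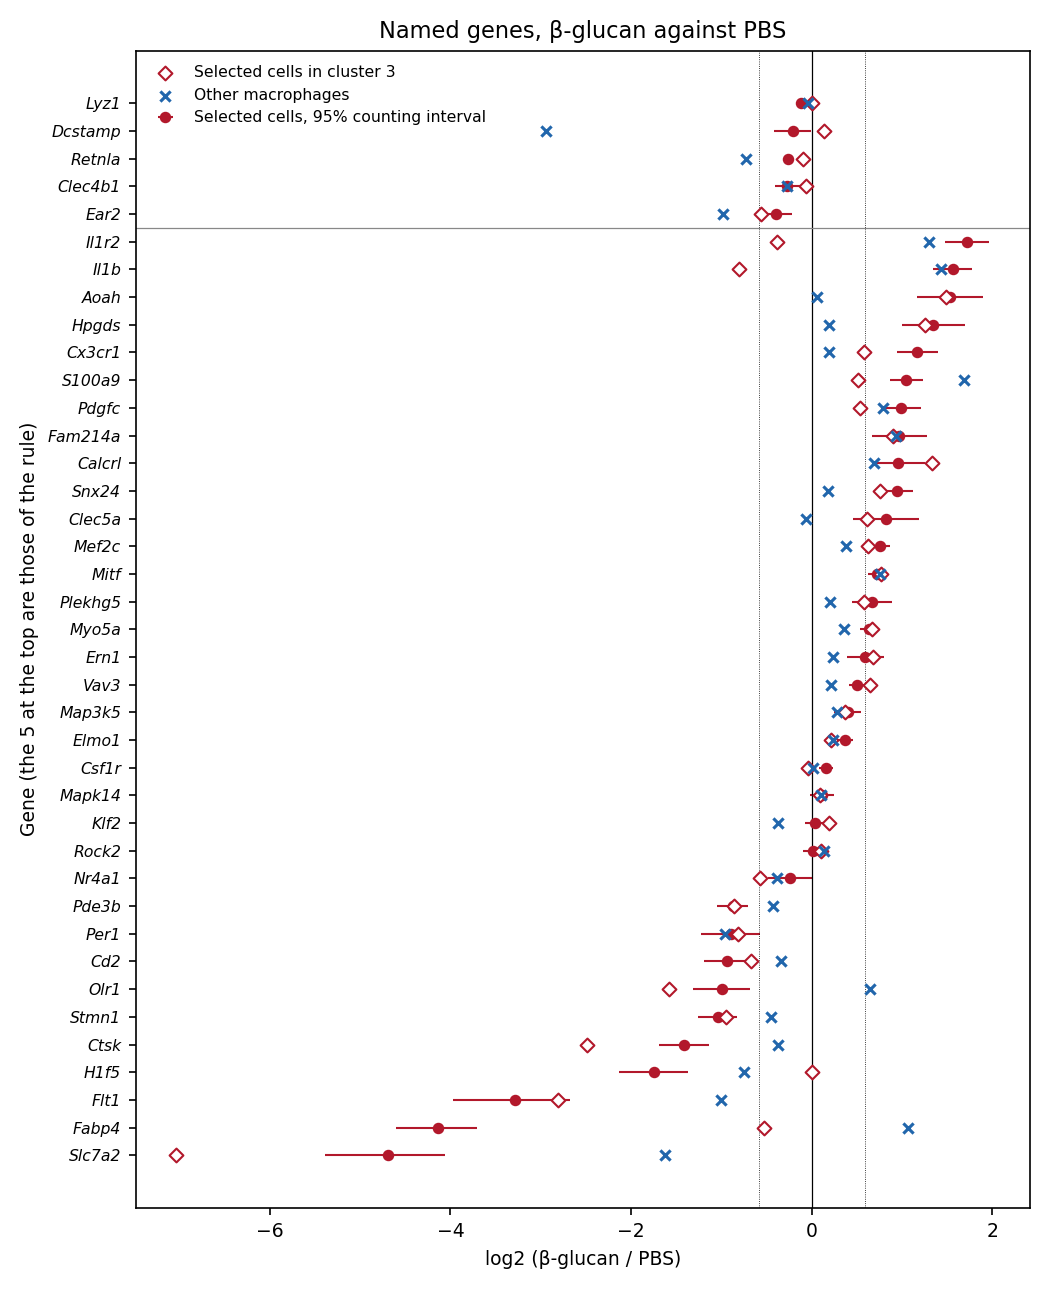
Log2 ratio of β-glucan over PBS for the named genes in the selected cells (filled red, with the exact 95% counting interval), in the selected cells of cluster 3 (open red) and in other macrophages (blue crosses), with 1.5-fold as dotted lines. *Il1r2* and *Il1b* turn direction in cluster 3, where their levels were low, and *Fabp4* falls back to -0.53 there.

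Among the same genes the lowest ratios were those of *Slc7a2*, *Fabp4* and *Flt1*. *Slc7a2* (chr8:41315431-41375345, plus strand), which encodes an arginine transporter, was at 5.46 and 140 CPM (log2 -4.68, -5.39 to -4.06), from 13 and 33 cells, and 5 cells held 61% of its PBS UMIs. In other macrophages the ratio of *Slc7a2* was -1.62. *Flt1* (chr5:147498414-147662826, minus strand), a receptor of vascular endothelial growth factor, was at 5.98 and 58.5 CPM (-3.29, -3.97 to -2.68), from 12 and 36 cells, with 51.1% of its PBS UMIs in 5 cells, and at -1.002 in other macrophages. Within the selected cells of cluster 3 *Slc7a2* was at 1.05 and 137 CPM and *Flt1* at 9.95 and 69.5 CPM, so both were low after β-glucan there too.

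The other low ratios also differed in how many cells they came from. *Fabp4*, a fatty acid binding protein of fat and vessel cells, was at 11.7 and 206 CPM (-4.13), but 919 of its 998 PBS UMIs (92.1%) were in 1 cell of the cluster led by *Acta2* and *Fabp4*, and without the top cells the ratio was -0.65. *H1f5*, a linker histone, was at 19.2 and 64.5 CPM (-1.74) and *Stmn1* at 64.2 and 132 CPM (-1.04), with the top cells in the cycling cluster, which held 6 and 9 selected cells. *Stmn1* was also low in cluster 3, at -0.95. *Ctsk*, the collagen-cleaving protease of osteoclasts, was at 36.4 and 96.8 CPM (-1.41, -1.69 to -1.14) from 27 and 30 cells, with 27.9% of PBS UMIs in 1 cell. Its ratio was -1.26 without the top cells and -2.49 in cluster 3, at 9.95 and 56.0 CPM. *Olr1* (-0.99), a receptor of oxidised lipoprotein, had 60.2% of its PBS UMIs in 5 cells, and it stood at -1.57 in cluster 3, 0.52 outside it and 0.64 in other macrophages. *Cd2* (-0.94), *Per1* (-0.90) and *Pde3b* (-0.88, 127 and 166 cells) had at most 6.67% of their UMIs in 1 cell.

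Of the 16 genes compared between the groups by the scRNA-seq results of the study, 14 reached the level filter here, and 6 of them were past 1.5-fold higher and none lower, at a median of 0.45, beside 1.79% and 0.669% of all genes and a median of 0.03. They were chosen on these samples, so their direction is no independent evidence. Of those past the fold, *Mitf*, *Mef2c* and *Myo5a* span more than 100 kb, and *Plekhg5*, *Cx3cr1* and *Ern1* span less. Among all genes of 100 kb or more, 4.34% were past the fold higher. *Mitf* (chr6:97783950-97998323, plus strand), a transcription factor that drives osteoclast and lysosomal genes, was at 500 and 302 CPM (0.73, 0.63 to 0.82), from 153 and 181 cells, and at 0.77 in cluster 3 and 0.76 in other macrophages. *Mef2c* stood at 0.75, *Plekhg5* at 0.67, *Myo5a*, an organelle motor, at 0.63 and *Ern1*, a sensor of unfolded protein, at 0.59, and *Cx3cr1* as above. *Ern1* was no longer past 1.5-fold without the top cells, at 0.57. *Vav3* (0.50), *Map3k5* (0.40), *Elmo1* (0.37), *Csf1r* (0.16), *Mapk14* (0.12), *Klf2* (0.03), *Rock2* (0.02) and *Nr4a1* (-0.24) were not past the fold, and *Hpgds* (1.34) and *Clec5a* (0.82, at 40.04 and 22.7 CPM) were under the mean level of the filter.

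The lists between the libraries are read beside all genes, of which 1.79% were past 1.5-fold higher and 0.669% lower, with 2081 of 3736 above 0. MHC class II genes were above 0 in 1 of 9, none past 1.5-fold, at a median of -0.37 against -0.23 in other macrophages. Proliferation markers were past 1.5-fold lower in 3 of 3 measured, at a median of -0.72 and -0.54 in other macrophages, with summed levels of 172 and 314 CPM. They came from few cells, since 5 cells held 76.5% and 54.8% of the UMIs of *Stmn1*, 76.4% and 55.9% of *Mki67* and 85.7% and 66.7% of *Top2a*, and the top cells lay in the cycling cluster. In the selected cells of cluster 3 the median of the proliferation markers was -1.39, at low levels, *Mki67* for instance at 7.33 and 19.2 CPM. Both measured neutrophil markers, *S100a8* and *S100a9*, were higher, at a median of 0.99 and 1.62 in other macrophages. The median was 3.16 without the top cells and 0.40 in cluster 3, where *S100a9* was at only 3.14 and 2.20 CPM. In each library 5 cells held at least 85.5% of the UMIs of either marker. Of 6 resident macrophage markers *Lyve1* and *Cx3cr1* were higher, at a median of 0.38, and of 13 receptors *C5ar1*, *Cx3cr1* and *Ccr1*, at 0.27. In cluster 3 the median of the resident markers was 0.01.

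Beside the same shares of all genes, in the fusion and osteoclast list *Mitf* was higher and *Ctsk* lower among 17, at a median of 0.01, and in the alternative activation list *Ccl24* was lower among 13, at a median of 0.03. Of 4 cytokine genes *Il1r2* and *Il1b* were higher, with a median of 0.82 over all selected cells and -0.28 in cluster 3. Of 20 transcription factors *Mitf*, *Maf* and *Mef2c* were higher, at a median of 0.03. No gene of the β-glucan receptor signalling list (8 measured), of the Fc receptors (4) or of the immediate-early genes (13) was past 1.5-fold, at medians of -0.11, 0.04 and 0.15. *Clec7a*, the receptor of β-glucan, was not analysed here.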

How the data were processed

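The authors made the deposited counts, which are UMIs per gene and barcode, with Cell Ranger 7.0.0 on GRCm39, and pooled the 4 mice of a group into 1 library. Intron counting is not given in the sources used here. From these counts, cells with 500 or more genes and mitochondrial UMIs of 10% or less were kept (10249 of 12956 barcodes, all of which the study counted as cells), UMIs were summed over the cells of a population and scaled to CPM, and nothing was imputed or corrected for free RNA. With 1 library per group no test was run. Intervals are Clopper-Pearson for shares, Poisson for sums and conditional binomial for ratios, and a gene was counted past 1.5-fold between libraries or past 2-fold in both libraries between populations, among genes with 50 CPM or more. Between populations, this level could be reached in 1 of them only. The genes named are the 10 highest and 10 lowest ratios between libraries and the 15 highest and 10 lowest against other macrophages, with the rule and study genes, and single other genes were named from the lists. Clusters came from Seurat 5.3.0 with sctransform 0.4.2 (3000 genes, 30 components, 20 neighbours, resolution 0.7), and scores of doublets from Scrublet in scanpy 1.11.5. Positions come from GENCODE on GRCm39. Results for some genes, the further gene of the rule among them, are not reported here. The calculations were tested on simulated data. The members and the gene lists were chosen with earlier results of these data known. Alternatives changed the filter, the number of rule genes, depth, minimum level, fold, scaling (edgeR 4.0.16) and cluster.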

Additional observations from a re-analysis of the deposited data

How the results depend on the processing

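No paired analysis was possible because each group was 1 library, and no replicate could be left out. The share of selected cells was 2.36% after β-glucan and 3.61% after PBS with no filter on cells, 10.8% and 15.4% with at least 2 of the 5 genes, and 1.11% and 1.80% with at least 4. The PBS share was the higher in each. Between libraries, the counts of 67 genes higher and 25 lower with β-glucan became 125 and 36 with at least 4 of the 5 genes, 17 and 8 with at least 2, 101 and 39 at 8000 UMIs per cell, 148 and 75 at a minimum of 20 CPM, 29 and 10 at 100 CPM, 376 and 154 at a fold below 1.5, and 4 and 6 at 2-fold. These were partly other genes. Of the 67 and 25, only 36 and 14 were counted again with at least 4 of the 5 genes, 12 and 6 with at least 2, and 44 and 16 at 8000 UMIs. Against other macrophages, the genes past 2-fold higher became 174 at 20 CPM and 63 at 100 CPM, and the 135 lower became 231 with at least 4 of the 5 genes, 218 at 20 CPM and 298 in the selected cells of cluster 3 alone, a setting chosen after seeing the data. In cluster 3, at low levels, *Il1r2* turned to -0.38 and *Il1b* to -0.81. *Olr1* turned to 0.048 with at least 2 of the 5 genes. Of the other values of named genes between libraries, 396 moved by less than their counting interval and 108 by more, all with the same sign where the gene was past the fold. The 225 values against other macrophages kept their sign and stayed past 2-fold. This was partly fixed, since those genes were named for the most extreme ratios. The cause of the changes between settings was not tested. The median of all genes, 0.03, was -0.02 under trimmed mean of M values scaling and -0.01 under median of ratios scaling. Depth limits rare genes: a gene at 0 in the selected cells could be at up to 0.959 and 0.760 CPM.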

Other observations

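The following genes were picked out after their values were seen. *Rnase2a*, a ribonuclease of the Ear family, had 1 UMI in the selected cells of the β-glucan library and 177 UMIs in 19 cells of the PBS library, 66 of them in 1 cell. *Alox15*, a lipoxygenase of alternatively activated macrophages, had 0 UMIs and 47 UMIs in 6 cells. The chemokine *Ccl8* went the other way, with 176 UMIs in 15 cells after β-glucan and 19 in 9 cells after PBS. These values rest on few cells of 1 library each.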
